A study of Rattus norvegicus with 20 samples.

Results

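The genes described here are 9 that handle magnesium in the kidney or steer that handling: Trpm6, Trpm7, Kcna1, Egf, Egfr, Cnnm2, Slc41a3, Fxyd2 and Pvalb. They were taken by gene symbol from the 32545 genes listed for cyclosporine A and the 32883 genes listed for tacrolimus, and were carried between the tables by gene identifier. Of the 9 genes, 7 had enough fragments to be tested in each table. Pvalb and Kcna1 were listed at 0 in all 20 libraries. With tacrolimus, Trpm6, Egf and Cnnm2 fell to 46.3%, 51.8% and 64.3% of their vehicle levels, and the other 4 tested genes were not called. With cyclosporine A none of the 7 tested genes was called once the libraries had been put on a common scale.

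Most filtered magnesium is taken back in the thick ascending limb, where it passes between the cells through claudin pores, and the distal convoluted tubule sets how much is finally lost. In that last segment magnesium enters through apical TRPM6 and TRPM7 channels, driven by a membrane voltage that the potassium channel KCNA1 helps to hold. It is thought to leave on the basolateral side by routes that involve CNNM2 and SLC41A3, next to the sodium pump with its FXYD2 subunit, and EGF acting on the basolateral EGF receptor raises TRPM6 activity. Low blood magnesium from renal loss is a known side effect of calcineurin inhibitors, which block the phosphatase that activates NFAT transcription factors.

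The promoters of the 3 genes that fell with tacrolimus are shown because these genes moved together. Each window is 300 bases long, with 250 bases before and 50 bases after a start site in RefSeq on build GRCr8, written 5′ to 3′ on the gene's strand. RefSeq gave 7 of the 9 genes a window, and Trpm6 3 windows, of which the third lies 1 base from the second. Capitals mark GGAAA on either strand (TTTCC when read on the reverse), the core of the NFAT motif.
Trpm6 first start, chr1:225559278-225559577, plus strand: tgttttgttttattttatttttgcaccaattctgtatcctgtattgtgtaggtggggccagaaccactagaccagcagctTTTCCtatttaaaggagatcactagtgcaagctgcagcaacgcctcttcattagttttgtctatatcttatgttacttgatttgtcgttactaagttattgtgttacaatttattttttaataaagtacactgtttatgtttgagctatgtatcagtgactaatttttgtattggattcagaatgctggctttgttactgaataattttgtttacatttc
Trpm6 second start, chr1:225596058-225596357, plus strand: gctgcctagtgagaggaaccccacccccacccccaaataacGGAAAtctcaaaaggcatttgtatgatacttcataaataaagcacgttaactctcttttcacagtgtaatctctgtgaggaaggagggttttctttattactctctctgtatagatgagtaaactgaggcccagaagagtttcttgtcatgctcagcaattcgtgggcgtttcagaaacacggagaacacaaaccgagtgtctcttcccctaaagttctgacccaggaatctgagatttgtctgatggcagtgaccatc
Egf, chr2:220976248-220976547, minus strand: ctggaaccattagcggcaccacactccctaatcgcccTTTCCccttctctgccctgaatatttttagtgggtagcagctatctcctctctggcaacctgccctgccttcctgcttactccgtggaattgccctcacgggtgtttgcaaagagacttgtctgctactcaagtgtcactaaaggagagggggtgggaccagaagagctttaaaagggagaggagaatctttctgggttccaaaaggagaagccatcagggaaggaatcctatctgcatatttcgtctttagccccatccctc
Cnnm2, chr1:255584902-255585201, plus strand: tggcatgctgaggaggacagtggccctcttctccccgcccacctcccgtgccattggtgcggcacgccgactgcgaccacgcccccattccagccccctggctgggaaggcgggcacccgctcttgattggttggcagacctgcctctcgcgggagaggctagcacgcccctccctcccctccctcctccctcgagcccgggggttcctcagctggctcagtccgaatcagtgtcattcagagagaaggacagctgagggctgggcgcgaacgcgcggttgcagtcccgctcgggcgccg

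GGAAA occurred 1 time in each Trpm6 window and 1 time in the Egf window, and 0 times in the Cnnm2 window. Among 33469 RefSeq promoter windows of the same length, 62.7% held GGAAA on either strand. The windows of Trpm7 and Egfr, which were not called with either drug on the main scale, held 1 and 0 matches. Searches on both strands for the AP-1 motif TGANTCA, present in 7.33% of promoters, for the cAMP response element TGACGTCA, present in 1.83%, and for TATAAA, present in 14.2%, found 0 matches in the windows of all 7 genes. Base composition differed, with a GC content of 32.7% and 44.7% in the first and second Trpm6 windows, 51.0% for Egf and 69.0% for Cnnm2. The starts of the first and second Trpm6 windows lie 36780 bases apart, and the gene-level values do not tell which start was used. Gene positions below are those of the tables on rn6, where Trpm6 and Egf lie on the strand opposite to that in GRCr8, and no position was converted between builds.

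The study measured whole-kidney RNA of wild-type (WT) male Wistar rats aged 10 to 12 weeks, 1 library per sample, after 28 days of treatment through implanted osmotic minipumps. It asked how the 2 calcineurin inhibitors differ in their effects on the kidney. The groups were cyclosporine A (n = 4) with saline as its vehicle (n = 4), and tacrolimus at a target trough of 3.5 ng/ml (n = 6) with DMSO (25%) mixed with polyethylene glycol (75%) as its vehicle (DMSO/PEG, n = 6). The drugs share no vehicle and no table, and in any contrast between them drug, vehicle and table cannot be told apart.

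Libraries held 30468748 to 34308843 assigned fragments in the experiment with cyclosporine A and 31670202 to 39358485 in that with tacrolimus. Mitochondrial genes took 49.7% to 68.6% of fragments with saline and 80.2% to 90.8% with cyclosporine A (exact 2-sided permutation p = 0.0286, the smallest 4 against 4 allows; adjusted p over 8 library measures 0.0762). They took 10.5% to 13.7% with DMSO/PEG and 10.8% to 15.9% with tacrolimus. Fragments outside the mitochondrial genome therefore numbered 10283957 to 17256692 per saline library and 2905828 to 6549263 per cyclosporine A library. Markers of the cortex were uneven in the saline libraries. Of 6 proximal tubule markers, Slc5a2 and Slc5a12 had means of 0.278 and 0.163 rescaled FPKM, and Cubn, Lrp2, Slc22a6 and Slc34a1 had means of 4.95 to 128. The podocyte markers ran from 0.203 for Nphs1 to 2.17 for Podxl. In the separately normalized DMSO/PEG libraries the proximal tubule markers had means of 40.6 to 1537 FPKM and the podocyte markers 11.5 to 32.1 FPKM. Saline means of Trpm6, Egf and the distal convoluted tubule marker Slc12a3 were 0.891, 4.08 and 9.62 rescaled FPKM. The DMSO/PEG means of these genes were 5.05, 52.8 and 102 FPKM. FPKM are fragments scaled by gene length and by the size of the library. In the cyclosporine A table they were deposited relative to all fragments, mitochondrial ones included. The main values for that table were therefore rescaled by median-of-ratios size factors, a scaling that makes the typical gene equal between libraries and that the tacrolimus values already carry. Fold changes are differences of log2(FPKM + 1), which understate the change of genes with low values.

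TRPM6 and TRPM7 are the apical channels. With tacrolimus, Trpm6 (ENSRNOG00000013053, rn6 chromosome 1, 234479289 to 234596971, minus strand) read 4.20 FPKM in the lowest, 5.12 in the median and 5.74 in the highest of 6 vehicle libraries. In the tacrolimus libraries it read 2.21, 2.29 and 2.55 FPKM. Every tacrolimus library lay below every vehicle library, and the spread was narrower in the tacrolimus group. The group means were 5.05 ± 0.65 (SD, n = 6) and 2.34 ± 0.129 (SD, n = 6). Trpm6 fell by 0.85 on the log2 scale (standard error 0.08, limma adjusted p = 9.54e-05). By p value Trpm6 ranked at position 5 of 15493 genes. In whole kidney a fall of this kind can come from fewer cells of a type or from less RNA per cell, and the 2 cannot be told apart.

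Trpm7 (ENSRNOG00000057806, rn6 chromosome 3, 119259467 to 119330345), the widely expressed relative of Trpm6, read 12.6, 18.0 and 19.9 FPKM in the lowest, median and highest vehicle libraries. With tacrolimus it read 12.2, 16.1 and 17.0 FPKM. The groups overlapped over most of their range, and the log2 difference was −0.14 (95% interval −0.36 to 0.09, limma adjusted p = 0.792). Kcna1 (ENSRNOG00000019750, rn6 chromosome 4, 159190804 to 159192526) was listed at 0 in each library, so no fold is given.

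EGF is made as a membrane-bound precursor by distal tubule cells and is released by cleavage. Egf (ENSRNOG00000053979, rn6 chromosome 2, 68820615 to 68895920, plus strand) stood at 47.5, 51.8 and 59.8 FPKM in the lowest, median and highest DMSO/PEG libraries. Under tacrolimus these were 22.3, 27.6 and 30.7 FPKM, and the groups did not overlap. The group means were 52.8 ± 4.83 (SD, n = 6) and 27.4 ± 3.05 (SD, n = 6). Egf fell by 0.93 on the log2 scale (standard error 0.08, limma adjusted p = 9.54e-05).

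Its receptor Egfr (ENSRNOG00000004332, rn6 chromosome 14, 99919485 to 100098796) was present at a much lower level per length. It read 1.81, 2.58 and 3.16 FPKM in the lowest, median and highest vehicle libraries and 1.82, 2.47 and 2.89 FPKM with tacrolimus. These ranges nearly coincide, and the log2 difference was −0.05 (95% interval −0.28 to 0.19, limma adjusted p = 0.952).

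Cnnm2 encodes a basolateral membrane protein whose loss causes renal magnesium wasting. Cnnm2 (ENSRNOG00000020113, rn6 chromosome 1, 266530477 to 266649398, plus strand) read 15.005, 16.6 and 17.6 FPKM in the lowest, median and highest vehicle libraries and 9.90, 10.7 and 11.1 FPKM with tacrolimus. The groups were again fully separate. The group means were 16.5 ± 1.02 (SD, n = 6) and 10.6 ± 0.493 (SD, n = 6). Cnnm2 fell by 0.59 on the log2 scale (standard error 0.05, limma adjusted p = 9.54e-05).

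Slc41a3 (ENSRNOG00000045821, rn6 chromosome 4, 123467549 to 123510217), a magnesium transporter of the distal convoluted tubule, was low, with 0.636 to 1.19 FPKM in vehicle and 0.884 to 1.20 FPKM in tacrolimus libraries. Its log2 difference was 0.08 (95% interval −0.08 to 0.25, limma adjusted p = 0.854). Fxyd2 (ENSRNOG00000016469, rn6 chromosome 8, 49710477 to 49716955), the gamma subunit that tunes the sodium pump, was by far the most abundant of the 9 per length, on a listed length of 258 bases. It read 4498, 4973 and 6989 FPKM in the lowest, median and highest vehicle libraries and 4012, 4566 and 4761 FPKM with tacrolimus. The ranges overlapped, and its log2 difference was −0.22 (95% interval −0.52 to 0.07, limma adjusted p = 0.718). Pvalb (ENSRNOG00000006471, rn6 chromosome 7, 119429019 to 119441487), a cytosolic calcium and magnesium buffer known from the early distal convoluted tubule, was listed at 0 in each library. For Pvalb and Kcna1 the tables do not tell an absent transcript from reads that were not assigned to the gene.

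**Figure D1:**
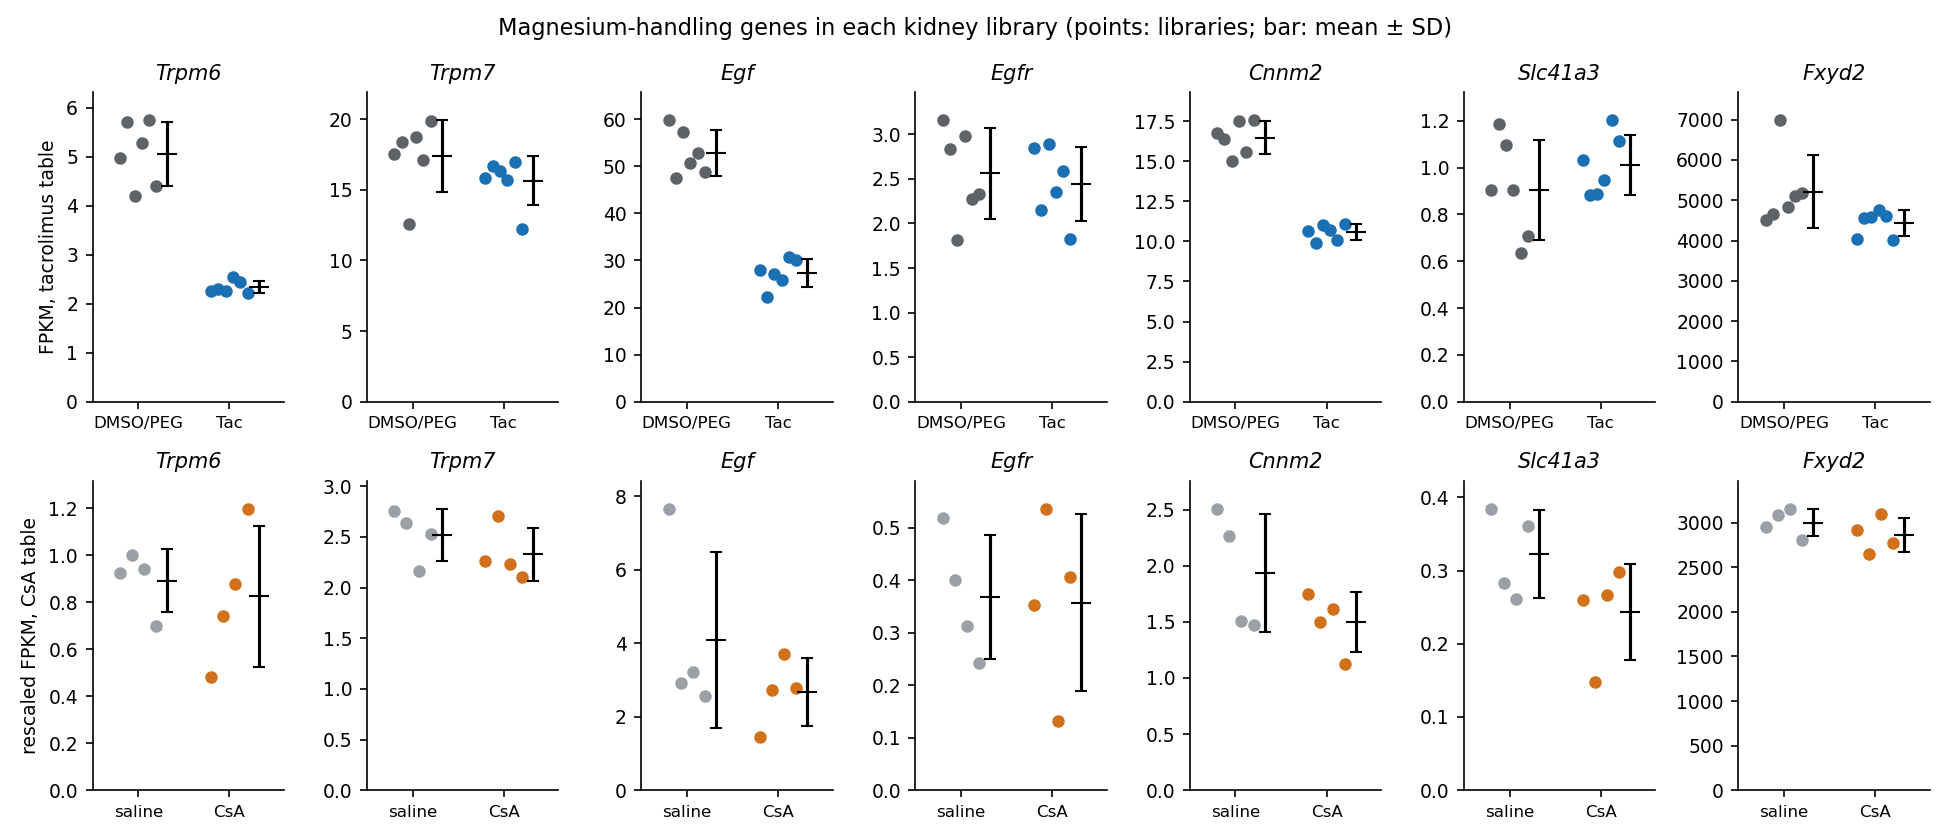
FPKM of the 7 tested genes in each library, with the tacrolimus table in the upper row and the cyclosporine A table (rescaled FPKM) in the lower row; points are libraries and bars are mean ± SD. Trpm6, Egf and Cnnm2 separate fully between vehicle and tacrolimus, and every gene overlaps between saline and cyclosporine A.

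With tacrolimus, then, 3 of the 7 tested genes were called lower and 0 higher. Over all 15493 genes tested, 0.303% were called in either direction, 0.284% lower and 0.0194% higher. The same 3 genes did not overlap between groups, against 0.671% of all genes lower without overlap. The median log2 difference of the 7 genes was −0.22, and that of all genes tested was −0.00033. The calls of Trpm6, Egf and Cnnm2 held under all 18 alternative settings, with log2 differences of −1.09 to −0.82, −0.96 to −0.87 and −0.68 to −0.57.

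**Figure D2:**
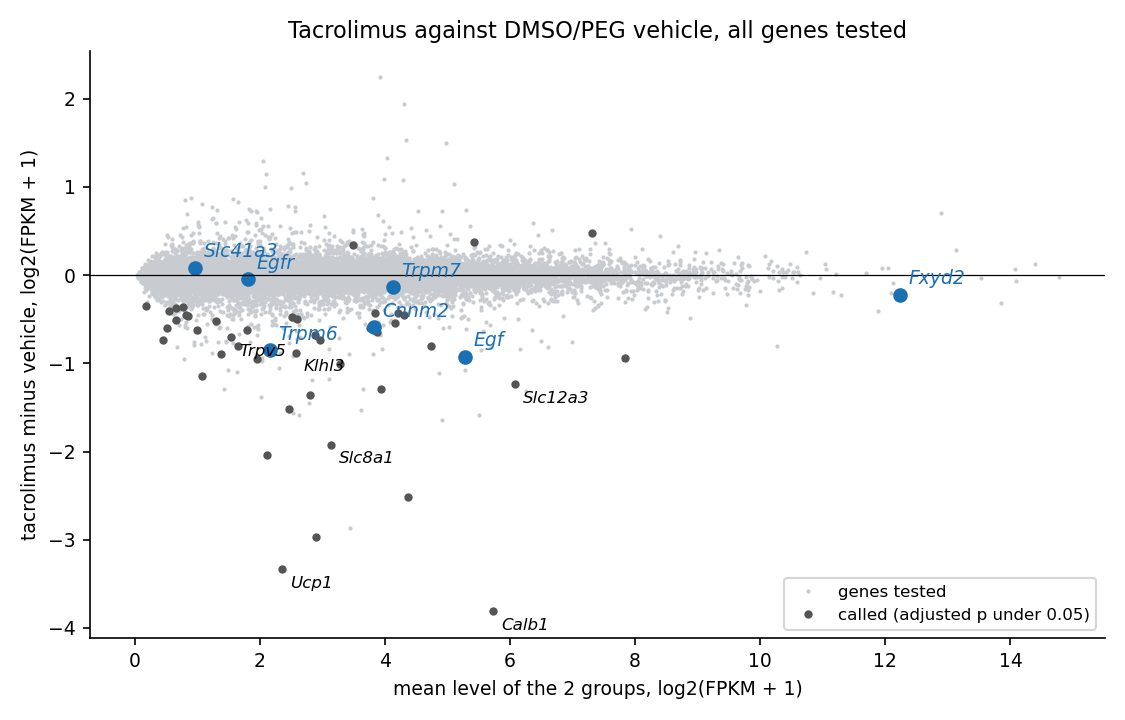
Log2 difference, tacrolimus minus vehicle, against the mean log2(FPKM + 1) level of the 2 groups for all 15493 genes tested; grey dots are genes, dark dots genes with an adjusted p under 0.05, and blue dots the 7 tested magnesium genes. Trpm6, Egf and Cnnm2 lie below the cloud, and Trpm7, Egfr, Slc41a3 and Fxyd2 lie within it.

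The order of levels per length changed at 1 place. In the vehicle libraries it ran Fxyd2, Egf, Trpm7, Cnnm2, Trpm6, Egfr, Slc41a3, and only Trpm7 and Cnnm2 overlapped as neighbours. In the tacrolimus libraries Trpm7 and Cnnm2 no longer overlapped, while Trpm6 came down into the range of Egfr.

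With cyclosporine A, Trpm6 read 0.924, 0.999, 0.943 and 0.696 rescaled FPKM in saline replicates 1 to 4. In cyclosporine A replicates 1 to 4 it read 0.482, 0.740, 0.877 and 1.20. The treated group held both the lowest and the highest value of the 8. The log2 difference was −0.06 (95% interval −0.37 to 0.24, limma adjusted p = 0.869), on 222 to 389 fragments per saline library and 56 to 126 per cyclosporine A library.

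Egf read 7.66, 2.91, 3.22 and 2.55 rescaled FPKM in saline replicates 1 to 4 and 1.46, 2.72, 3.71 and 2.77 in cyclosporine A replicates 1 to 4. Saline replicate 1 stood above the rest, and the other saline libraries lay within the range of the treated ones. The means were 4.08 ± 2.40 (SD, n = 4) and 2.67 ± 0.924 (SD, n = 4), with a log2 difference of −0.41 (95% interval −1.07 to 0.25, limma adjusted p = 0.538). Without saline replicate 1 the difference was −0.12 (limma adjusted p = 0.885).

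Cnnm2 read 2.51, 2.26, 1.51 and 1.48 rescaled FPKM in the saline libraries and 1.74, 1.50, 1.62 and 1.12 in the cyclosporine A libraries. Only its lowest treated and 2 highest saline values lay outside the shared range, and the log2 difference was −0.22 (95% interval −0.58 to 0.13, limma adjusted p = 0.535). Trpm7 ranged from 2.16 to 2.76 with saline and 2.11 to 2.71 with cyclosporine A, and Egfr from 0.243 to 0.518 and 0.132 to 0.537. Their log2 differences were −0.08 and −0.02 (limma adjusted p = 0.801 and 0.964). Slc41a3 ranged from 0.261 to 0.385 and 0.148 to 0.299, on only 9 to 14 fragments per cyclosporine A library, with a difference of −0.09 (limma adjusted p = 0.644). Fxyd2 ranged from 2809 to 3157 and 2649 to 3096, with a difference of −0.07 (limma adjusted p = 0.862).

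On rescaled values 0 of the 7 genes were called by limma, where 0.609% of 13455 genes were, and 0 of 7 were without overlap, where 10.9% of all genes were. None of the 7 reached an unadjusted p under 0.05, which 16.2% of all genes did, and limma's weighted fit on recovered fragments (voom) also called 0 of 7. On the deposited scale all 7 were called lower, by 0.38 to 1.40, and 6 of them did not overlap between groups. On that scale 80.9% of all genes were called lower, 67.9% were lower without overlap, and the median of all genes was −0.89. Deposited means went from 1.44 to 0.520 FPKM for Trpm6, from 7.11 to 1.78 for Egf and from 3.19 to 1.01 for Cnnm2. The median of the 7 was −1.01 on the deposited scale and −0.08 on the rescaled one. The mitochondrial share moved with the group on both scales, and its part in the rescaled values was not tested.

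**Figure D3:**
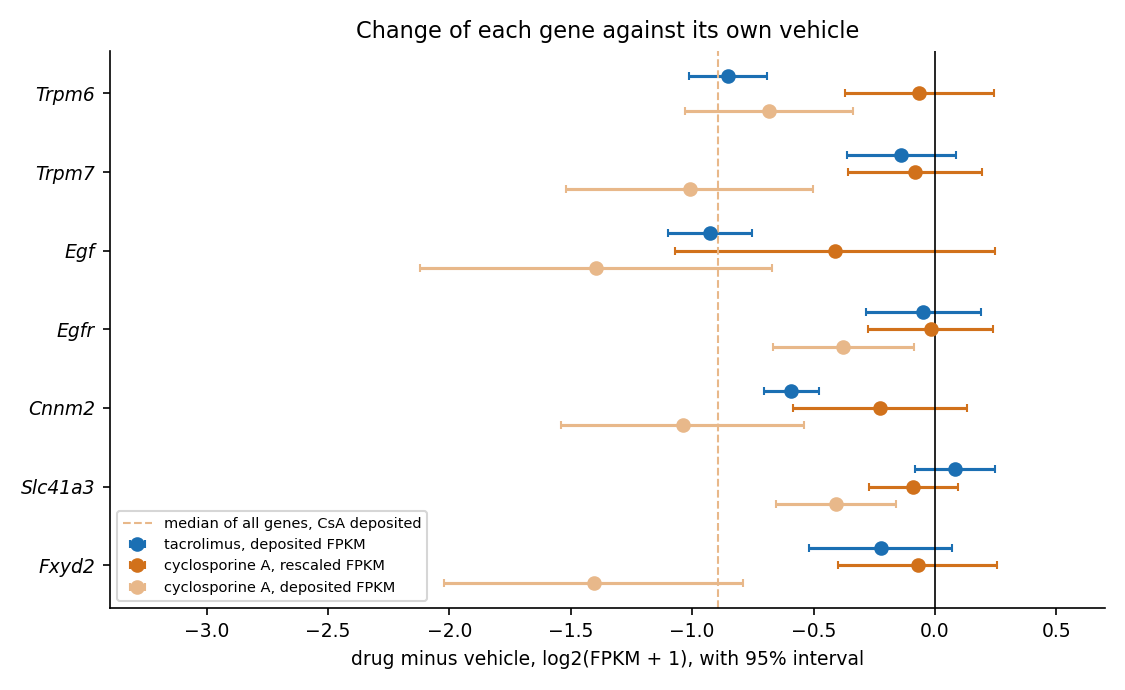
Log2 difference from the matching vehicle with its 95% interval for the 7 tested genes, for tacrolimus and for cyclosporine A on rescaled and deposited FPKM; the dashed line is the median of all genes on the deposited cyclosporine A scale, −0.89. Intervals for Trpm6, Egf and Cnnm2 exclude 0 with tacrolimus, and every rescaled cyclosporine A interval includes 0.

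The drugs were compared by subtracting the tacrolimus change of a gene from its cyclosporine A change, on rescaled FPKM. For Trpm6 it was 0.79 (standard error 0.16, 95% interval 0.45 to 1.12, adjusted p = 0.0242 from limma standard errors), so Trpm6 was 1 of 7 genes called, against 1.61% of the 13392 genes tested. The call was lost with a pseudocount of 0.1 (0.92, adjusted p = 0.162) and on deposited FPKM (0.17, adjusted p = 0.391). It was also lost when any of the 4 saline libraries was left out (0.74 to 0.82, limma-based adjusted p = 0.0615 to 0.0907), and it held in 17 of 23 alternative settings. For Egf the difference was 0.52 (95% interval −0.15 to 1.19, adjusted p = 0.453) and for Cnnm2 0.37 (95% interval −0.00083 to 0.73, adjusted p = 0.315), again from limma standard errors. These intervals do not settle whether Egf and Cnnm2 respond alike to both drugs. The remaining 4 differences lay between −0.17 and 0.15, with limma-based adjusted p of 0.479 to 0.954. Vehicle means were unlike in the 2 experiments: 0.891 rescaled FPKM and 5.05 FPKM for Trpm6, 4.08 and 52.8 for Egf, 1.94 and 16.5 for Cnnm2. Because 1 is added before the log, an equal proportional fall gives a smaller log2 change at the lower level. A difference above 0 can therefore appear without unlike proportional changes, and the part of this was not tested.

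A ratio of 2 genes within a library does not depend on how libraries are scaled, and 20 such ratios, 10 per table, were chosen after the data had been seen. With tacrolimus the ratio of Trpm6 to Trpm7 moved from 0.291 to 0.150 (group means on the log scale), a log2 difference of −0.96. Egf to Egfr moved from 20.9 to 11.3 (−0.89), and Cnnm2 to Cnnm3, its close relative, from 0.914 to 0.540 (−0.76). In each of these the 6 tacrolimus libraries lay below the 6 vehicle libraries (exact 2-sided permutation p = 0.00216, the smallest that 924 arrangements give; adjusted p = 0.00618 over 20). Each pair set a gene already seen to separate against a gene that was not called (Trpm7 −0.14, Egfr −0.05, Cnnm3 0.12). Separation was therefore largely built into the choice, and these p values are no further support. The same holds for the ratios of Egf to Umod and Slc12a1 below.

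Ratios to genes that mark a single segment were also taken with tacrolimus. Egf fell against the thick ascending limb genes Umod (−0.75) and Slc12a1 (−0.83), without overlap between groups (exact 2-sided permutation p = 0.00216 each). Against Slc12a3, the sodium chloride cotransporter of the distal convoluted tubule, Trpm6 differed by 0.16 (exact permutation p = 0.340), Egf by 0.31 (p = 0.0173, adjusted 0.0433) and Cnnm2 by 0.62 (p = 0.00216, adjusted 0.00618). Slc12a3 was itself called lower with tacrolimus (−1.24), and no ratio to another marker of that segment was taken. Of those other markers Slc8a1 and Klhl3 were called lower too, and Tmem52b, Emx1, Wnk4 and Pgam2 were not called (−0.27 to 0.06). Trpm6 to Cnnm2 fell by 0.47 without overlap (exact permutation p = 0.00216), and Trpm6 to Egf differed by −0.15 with overlap (exact permutation p = 0.275). With cyclosporine A all 10 ratios overlapped between groups, and the smallest exact permutation p was 0.0571, for Egf to Umod, where 4 against 4 libraries can reach 0.0286.

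**Figure D4:**
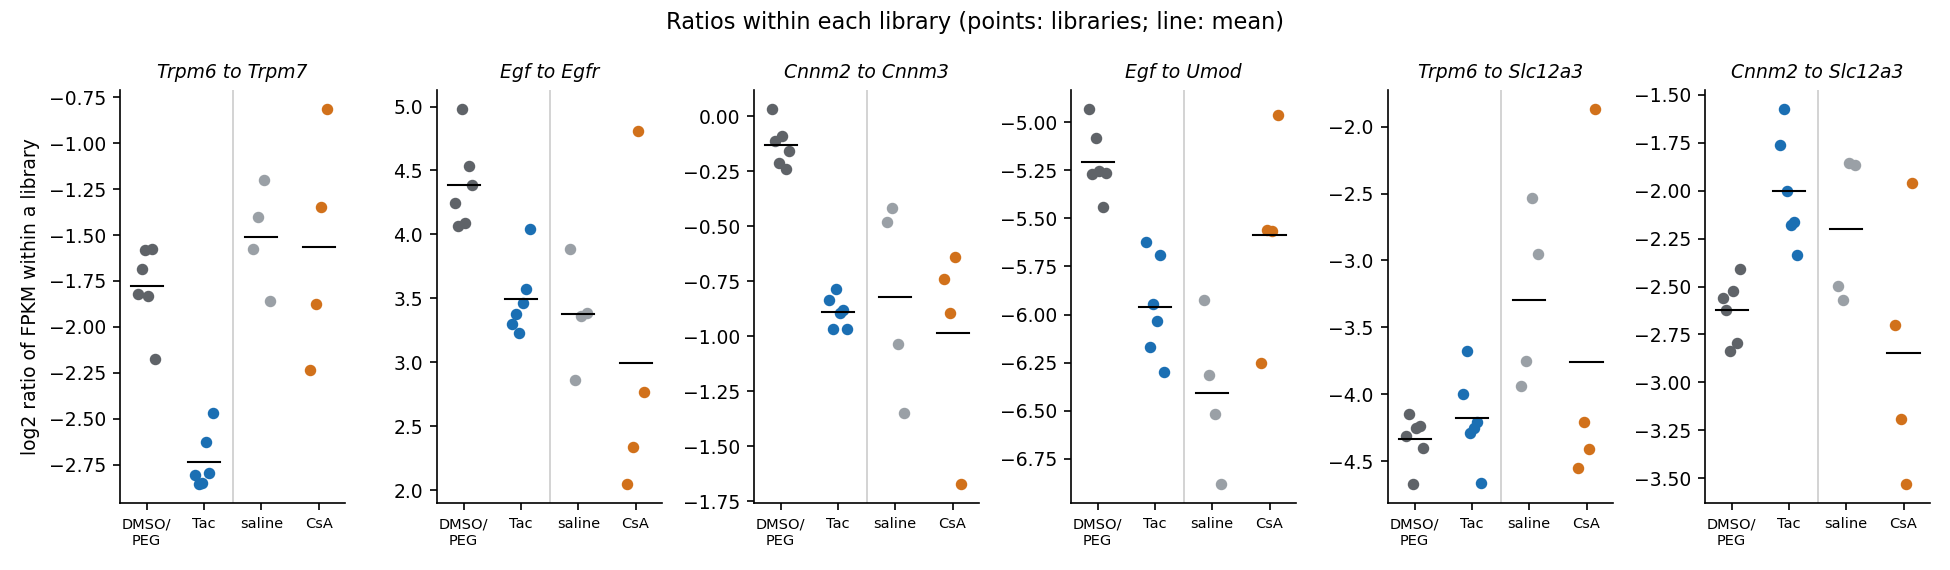
Log2 ratio of FPKM of 2 genes within each library for 6 of the 10 gene pairs; points are libraries, lines are group means, and the vertical line divides the separately normalized tables. Trpm6 to Trpm7, Egf to Egfr and Cnnm2 to Cnnm3 separate between DMSO/PEG and tacrolimus and overlap between saline and cyclosporine A.

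Another 41 genes of the same pathways were examined as 5 groups: EGF family ligands, ERBB receptors with their sheddases, magnesium transporters with their regulators, basolateral potassium recycling with the sodium pump, and the paracellular route of the thick ascending limb. With tacrolimus 38 were tested and 0 were called by limma or by voom, where limma called 0.303% of all genes, while 4 were lower and 3 higher at an unadjusted p under 0.05, against 8.58% of all genes in either direction. Their median log2 difference was −0.0046. The gene of smallest p in each group was the ligand Nrg4 (0.877 to 0.414 FPKM, −0.39, limma adjusted p = 0.241), the receptor Erbb3 (28.3 to 31.9 FPKM, 0.17, 0.532) and the CNNM-binding phosphatase Ptp4a3 (6.55 to 8.93 FPKM, 0.39, 0.316). In the last 2 groups it was the potassium channel Kcnj10 (13.2 to 10.9 FPKM, −0.25, limma adjusted p = 0.446) and the calcium-sensing receptor Casr (9.60 to 10.9 FPKM, 0.15, 0.792).

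With cyclosporine A 37 of the 41 were tested on rescaled FPKM and 0 were called by limma or by voom, where limma called 0.609% of all genes, with a median of −0.11. At an unadjusted p under 0.05, 6 were lower and 1 higher, where 16.2% of all genes passed in either direction. In the first 3 groups the genes of smallest p were Nrg1 (1.41 to 0.896 rescaled FPKM, −0.34, limma adjusted p = 0.295), the sheddase Adam10 (2.31 to 1.77, −0.26, 0.417) and Cnnm1 (0.490 to 0.174, −0.34, 0.204). In the paracellular group it was the claudin Cldn10 (57.0 to 42.2 rescaled FPKM, −0.44, limma adjusted p = 0.156). On deposited FPKM 33 of the 37 were called lower, where 80.9% of all genes were.

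**Figure D5:**
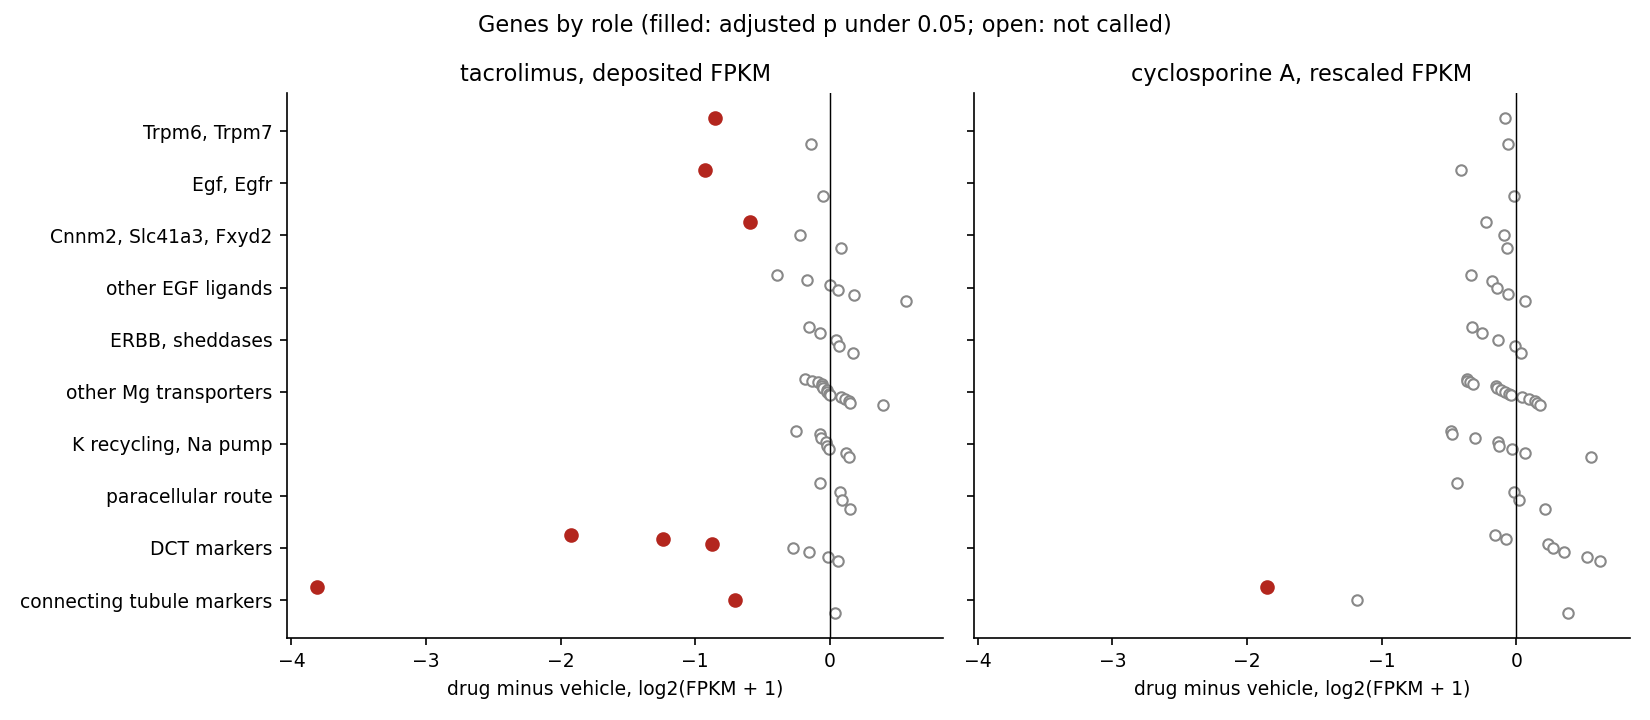
Log2 difference from vehicle for each tested gene of the pathway groups and of the distal convoluted tubule and connecting tubule marker lists, with tacrolimus on the left and cyclosporine A (rescaled FPKM) on the right; filled points have an adjusted p under 0.05. Among the pathway groups the filled points are Trpm6, Egf and Cnnm2 with tacrolimus, and the other filled points belong to the 2 marker lists drawn; further marker lists are not drawn.

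Some marker genes of the segment that holds Trpm6 moved with tacrolimus as well. Of 7 distal convoluted tubule markers 3 were called lower, where 0.284% of all genes were. They were the sodium calcium exchanger Slc8a1 (16.1 to 3.50 FPKM, −1.92), Slc12a3 (102 to 43.3 FPKM, −1.24) and Klhl3, an adaptor that marks WNK kinases for breakdown (7.08 to 3.39 FPKM, −0.88). Tmem52b (−0.27), Emx1 (−0.16), Wnk4 (−0.02) and Pgam2 (0.06) were not called by limma. The summed level of the 7 ran from 199.7 to 228 FPKM with vehicle and 108 to 142 FPKM with tacrolimus (exact 2-sided permutation p = 0.00216, adjusted p over 13 marker lists 0.0141). Slc12a3 was the largest part of that sum, whose means were 210 and 124 FPKM. None of the 7 was at 0, and the part of segment abundance in the fall of Trpm6, Egf and Cnnm2 was not tested.

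The thick ascending limb list was called for 0 of 7 genes with tacrolimus, where limma called 0.303% of all genes, and 0.284% lower. Its sum ran from 2262 to 2779 FPKM with vehicle and 1842 to 2800 FPKM with the drug (exact permutation p = 0.0952, adjusted 0.310). Of 3 connecting tubule markers, the calcium-binding Calb1 (198 to 13.1 FPKM) and the calcium channel Trpv5 (2.72 to 1.28 FPKM) were called lower by limma, and S100g (11.9 to 12.1 FPKM, 0.04, adjusted p = 0.974) was not. Their sum, made mostly of Calb1, ran from 182 to 250.3 FPKM and 23.7 to 28.3 FPKM (exact permutation p = 0.00216, adjusted 0.0141). Brown fat markers moved in the same direction: Ucp1 and Cidea, 2 of 4, were called lower, the sum ran from 24.6 to 71.8 FPKM and 8.79 to 33.4 FPKM (exact permutation p = 0.00866, adjusted 0.0375), and their part was not tested. The sums of the other 9 lists, from proximal tubule to leukocytes, had exact permutation p adjusted to between 0.349 and 0.881.

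With cyclosporine A the distal convoluted tubule list was called for 0 of 7 genes on rescaled FPKM, where limma called 0.609% of all genes. Its sum ran from 23.9 to 42.6 with saline and 30.1 to 53.9 with the drug (exact permutation p = 0.171, adjusted 0.433). In the thick ascending limb list Umod, the uromodulin gene, was called lower (323 to 125 rescaled FPKM, limma adjusted p = 0.0491). Voom called 2 of the 7, both lower, and its count over all genes is given with the processing settings below. The other 6 were not called by limma: Slc12a1 differed by −0.95 (60.0 to 30.9, limma adjusted p = 0.0512), Ptger3 by −0.38, Kcnj1 by −0.11, Cldn19 by −0.01, Cldn16 by 0.21 and Tmem207 by 0.26. The sum of that list, made mostly of Umod, did not overlap, at 321 to 577 and 170 to 260 (exact permutation p = 0.0286, adjusted 0.124). Urothelial markers summed to 1.16 to 3.84 and 6.59 to 16.3 (exact permutation p = 0.0286, adjusted 0.124), and limma called 1 of the 3 tested, Upk1a, higher. Connecting tubule markers summed to 45.0 to 75.2 and 14.95 to 27.0 (exact permutation p = 0.0286, adjusted 0.124), a sum made mostly of Calb1 (54.9 to 14.9 rescaled FPKM, called lower by limma). Trpv5 of the same list went from 0.407 to 0.852 (0.38, limma adjusted p = 0.276), and S100g differed by −1.18 and was not called. The 6 proximal tubule markers were mixed, with 2 lower and 2 higher without overlap between groups, where 10.9% of all genes did not overlap. Slc5a2 was called higher (0.278 to 1.45 rescaled FPKM, limma adjusted p = 0.0385), and Cubn (4.95 to 2.99, −0.58, adjusted p = 0.0979) and Lrp2 (23.5 to 15.7, −0.58, adjusted p = 0.186) were not called. Voom called 3 of the 6, 1 of them lower. The sum of that list, of which Slc34a1 is the largest part, ran from 158 to 238 and 108 to 297. The sums of the 9 lists not yet given, proximal tubule included, had exact permutation p adjusted to between 0.371 and 0.914. The part of these lists in the values of the magnesium genes was not tested.

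The 12 tacrolimus-table libraries also gave the genes whose profile lay nearest to Trpm6, by the root-mean-square difference of log2(FPKM + 1) after subtracting each gene's vehicle mean. Among 12888 genes these were Wnk1 at 0.0763, Klhl3 at 0.0986, LOC102549506 at 0.155, Slc16a5 at 0.162 and Capn6 at 0.193, where the median gene lay at 0.634. Wnk1, a kinase gene with a kidney-specific form in the distal convoluted tubule, went from 34.2 to 19.1 FPKM. Nearest to Egf were Capn6 at 0.150, the defensin Defb1 at 0.174, Wnk1 at 0.189, Stk32a at 0.191 and Klhl3 at 0.195. Defb1 went from 317 to 164 FPKM. Wnk1, Klhl3 and Capn6 were thus on both lists. With cyclosporine A, Wnk1 read 6.84 and 6.83 rescaled FPKM in the 2 groups and Klhl3 0.742 and 1.06, neither called by limma.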

How the data were processed

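Whole-kidney RNA sequencing of 20 rats was deposited as 2 tables of FPKM, 1 per drug with its vehicle. Reads were aligned with HISAT2 to rn6, per the submitters' processing notes; the counting program, annotation release and strand setting are not given in the sources used here. The authors' deposited FPKM values are fragments scaled by gene length and library size. Gene lengths, the other deposited column used, come from the same tables, per the file headers.

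Multiplying FPKM by length recovered whole fragments (tolerance 0.002) for 100% of values in the tacrolimus table and 74.2% in the cyclosporine A table, where 4445 of 18892 detected genes needed a shorter length than listed. Tacrolimus values follow median-of-ratios size factors; cyclosporine A values are relative to all fragments and were rescaled likewise. Tests used log2(FPKM + 1) in limma 3.58.1 under R 4.3.3, with trend, group as the only term, and Benjamini-Hochberg adjustment over all genes; a gene was called at an adjusted p under 0.05. Genes needed 10 fragments at the median library size in at least 4 (cyclosporine A) or 6 (tacrolimus) libraries and 15 in total. The difference between drugs used both limma standard errors with Satterthwaite degrees of freedom. Intervals are 95%. The fits were tested on simulated data.

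Replicate libraries of a group differed by more than sampling noise. Nothing says that samples sharing a replicate number were paired. Limma p-values set a difference between groups against the spread between samples within groups, moderated across genes. Permutation p-values place it among all rearrangements of the group labels. The text names the 9 genes, the smallest-p gene of each other pathway group (1 is not reported here), the distal convoluted tubule and thick ascending limb markers with sums of other marker lists, and the 5 nearest profiles to Trpm6 and to Egf; Calb1, Trpv5, Ucp1, Cidea, Upk1a and the proximal tubule and podocyte markers named were added after their values were seen. Genes and lists were chosen with earlier results of these data known. Settings varied were the pseudocount, filter, scaling, replicate block, voom weights and each library left out. The target trough of cyclosporine A was not used here.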

Additional observations from a re-analysis of the deposited data

Results flagged for a closer look

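Of 28 groups of the 7 tested genes, 3 held a library far from the others; chance gives about 1 in 20. Egf in saline replicate 1 read 7.66 rescaled FPKM, the highest of its group. Trpm7 in tacrolimus replicate 6 read 12.2 FPKM, the lowest of its group. Fxyd2 in DMSO/PEG replicate 3 read 6989 FPKM, the highest of its group. The change of Trpm6 differed between the drugs by 0.79 (cyclosporine A minus tacrolimus) in the test of the difference itself, on log2(FPKM + 1) values at unlike vehicle levels. Drug, vehicle and table cannot be told apart.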

How the results depend on the processing

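The cyclosporine A libraries held 9 to 14 fragments of Slc41a3 and 13 to 61 of Egfr each, which limits the precision of these values. The 82 genes called with cyclosporine A became 1 without a filter, 10911 on deposited FPKM, 281 with voom and 1 to 139 when each library was left out. The 47 called with tacrolimus became 121 with voom and 36 to 49 when each library was left out. The 216 called for the difference between drugs became 135 without a filter, 10068 on deposited FPKM and 27 to 272 when each library was left out. The cause was not tested, except that deposited FPKM shift the median of all genes by −0.89.

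Directions reversed for some values that were not called on the main scale. With cyclosporine A scaled to non-mitochondrial fragments Egfr became 0.0026 and Fxyd2 0.023; leaving out each library gave −0.16 to 0.032 for Trpm6 and −0.079 to 0.068 for Egfr, and with tacrolimus −0.11 to 0.0082 for Egfr. For the difference, deposited FPKM gave −0.87 for Trpm7, −0.47 for Egf, −0.33 for Egfr, −0.45 for Cnnm2 and −1.18 for Fxyd2; those of Trpm7 (limma-based adjusted p = 0.00567) and Fxyd2 (0.00284) gained a call, as did Slc41a3 (−0.49, 0.00340). Egfr became −0.030 with a pseudocount of 0.1, and leaving out each library gave −0.0071 to 0.14 for Trpm7 and −0.032 to 0.11 for Egfr.

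With the replicate number as a block, 6 genes were called with cyclosporine A and 44 with tacrolimus. Same-numbered libraries correlated at −0.15 to 0.21, and 3 of 8 and 4 of 12 libraries correlated best with their own number. These values do not settle whether the numbers pair the samples. Trpm6, Egf and Cnnm2 were called with tacrolimus under the block too.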

Other observations

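In the 8 libraries of the cyclosporine A table, the genes whose profile lay nearest to Egf among 9741 genes were Sgk2 at a root-mean-square log2 difference of 0.226, LOC680656 at 0.233, Mfsd7 at 0.270, Misp at 0.274 and Gab1 at 0.282. The median gene lay at 0.568. None of these 5 was among the 5 nearest to Egf in the tacrolimus table, and none was called with either drug. Trpm6 was too low in the cyclosporine A table, below a mean of 1 rescaled FPKM, for the same comparison.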
